A study of Mus musculus with 9 samples.

Results

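The gene expression of CD4 memory T cells that had lost the transcription factor Thpok was compared with that of control CD4 memory T cells, across all genes. The comparison uses 6 of the 9 RNA sequencing libraries of the study, chosen by their titles, and 15738 genes had enough counts to be tested. All cells were sorted from the spleens of mice at day 30 of an acute virus infection, LCMV Arm (lymphocytic choriomeningitis virus, Armstrong). The 3 CD4 control libraries hold GP66:I-Ab+ cells, which bind a class II tetramer loaded with a viral peptide, of the genotype Ox40-Cre-. The 3 CD4 ThpokAD libraries hold cells that bind the same tetramer, of the genotype Ox40-Cre+ Thpokfl/fl, in which Cre recombinase cuts the floxed Thpok gene (Zbtb7b). The other 3 libraries, CD8 control cells (GP33:H-2Db+, Ox40-Cre-), entered only the estimate of the spread between replicates. Ox40 (Tnfrsf4) is a costimulatory receptor that T cells put on when activated, so Cre acts in T cells after priming and in any other cell that uses the Ox40 locus. Cre was present in the ThpokAD group alone, and whether the controls carried floxed alleles is not given in the sources used here, so an effect of Cre itself cannot be told apart from one of Thpok loss. No label ties a replicate to an animal of its own, so p-values may rest on technical spread only. The ages of the mice are not given in the sources used here.

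Thpok is a zinc finger protein of the BTB family that binds DNA, recruits corepressors and keeps CD4 T cells in the helper lineage by restraining the genes of cytotoxic T cells. A memory T cell is mostly at rest: it rarely divides, lives on survival cytokines such as IL-7, and recirculates between blood and lymphoid tissue under the control of G protein coupled receptors. The gene groups below describe these functions (division, signalling, traffic, adhesion and metabolism) rather than the cytotoxic and helper programs.

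Zbtb7b, the targeted gene (GRCm38/mm10 chromosome 3, 89377644 to 89394776, minus strand), stood at 38.5, 47.6 and 48.9 CPM (counts scaled to a common library size, with edgeR's TMM factors) in the control libraries and at 0.698, 0.875 and 0.849 CPM in the ThpokAD libraries. The groups lay far apart, and every library matched its label. Cd4 was at 1359, 1409 and 1295 against 679, 675 and 551 CPM (control against ThpokAD) and did not pass the test (log2 fold change -1.09, adjusted p = 0.241). The groups did not overlap for Cd4, which was at 2.26, 1.36 and 0.222 CPM in the CD8 control libraries, and it was called with the 6 CD4 libraries alone, with bias-adjusted deviances and without CD8 control replicate 3 (adjusted p = 0.00482, 0.00407 and 0.00997). Cd8a was at 2.796, 2.74 and 4.195 against 64.5, 50.1 and 34.2 CPM (3.93, adjusted p = 0.000286). Tnfrsf4, whose locus drives Cre, was at 326, 432 and 374 against 76.2, 107 and 59.7 CPM (-2.22, adjusted p = 0.0201), a call lost without any 1 of CD4 control replicates 1, 2 and 3 and ThpokAD replicates 1 and 3 (adjusted p = 0.0595 to 0.0928), and an effect of the Cre allele on it cannot be told apart from one of Thpok loss. The log2 fold change of Zbtb7b was -5.79 (SE 0.26, adjusted p = 3.35e-05 by edgeR's quasi-likelihood test, Benjamini-Hochberg method). By the same test, with an adjusted p under 0.05 taken as a call, 285 genes rose (1.81% of those tested) and 146 fell (0.928%), 2.74% in all. The median log2 fold change of all tested genes was 0.0035. Of the 285 and 146 called genes, 100 and 35 kept their call whichever of the 9 libraries was left out. Leaving out a CD4 library lowered the counts most: without control replicates 1, 2 and 3 in turn 150, 140 and 166 genes were called higher and 54, 53 and 60 lower, and without ThpokAD replicates 1, 2 and 3 the counts were 131, 171 and 154 higher and 50, 103 and 63 lower. Each paragraph therefore says which calls were lost when a library was left out. Where values are written as 3 against 3, those of control replicates 1, 2 and 3 come first and those of ThpokAD replicates 1, 2 and 3 follow. A called gene was picked by these same values, so separate groups for it add no support of their own. Over all tested genes the groups were separate for 13.2% in the higher and 12.5% in the lower direction.

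The 6 libraries held 16664474 to 20245185 counts and the CD8 control libraries 19850495 to 38981516. Replicates differed by more than counting noise (chi-square per degree of freedom 26.5 to 39.6 between CD4 replicates). In a principal component analysis of the 6 libraries, the first component (33.35% of the variance) separated the groups and the next (19.85%) set ThpokAD replicate 1 apart from ThpokAD replicate 3. The summed level of 13 T cell markers was 10689 to 11367 CPM in the control libraries and 10453 to 10985 CPM in the ThpokAD libraries, with 1 of 13 markers called (Cd28, lower). The 60 gene lists described here hold 2475 tested genes, of which 92 (3.72%) were called higher and 64 (2.59%) lower, while 193 higher and 82 lower genes were in no list. The lists overlap, and counts and medians are descriptions with no test of the list itself. Counts of a few called members are to be read beside the shares over all tested genes, 1.81% higher and 0.928% lower. In bulk samples, fewer cells of a type and less RNA per cell cannot be told apart, so a level below may reflect either.

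**Figure D1:**
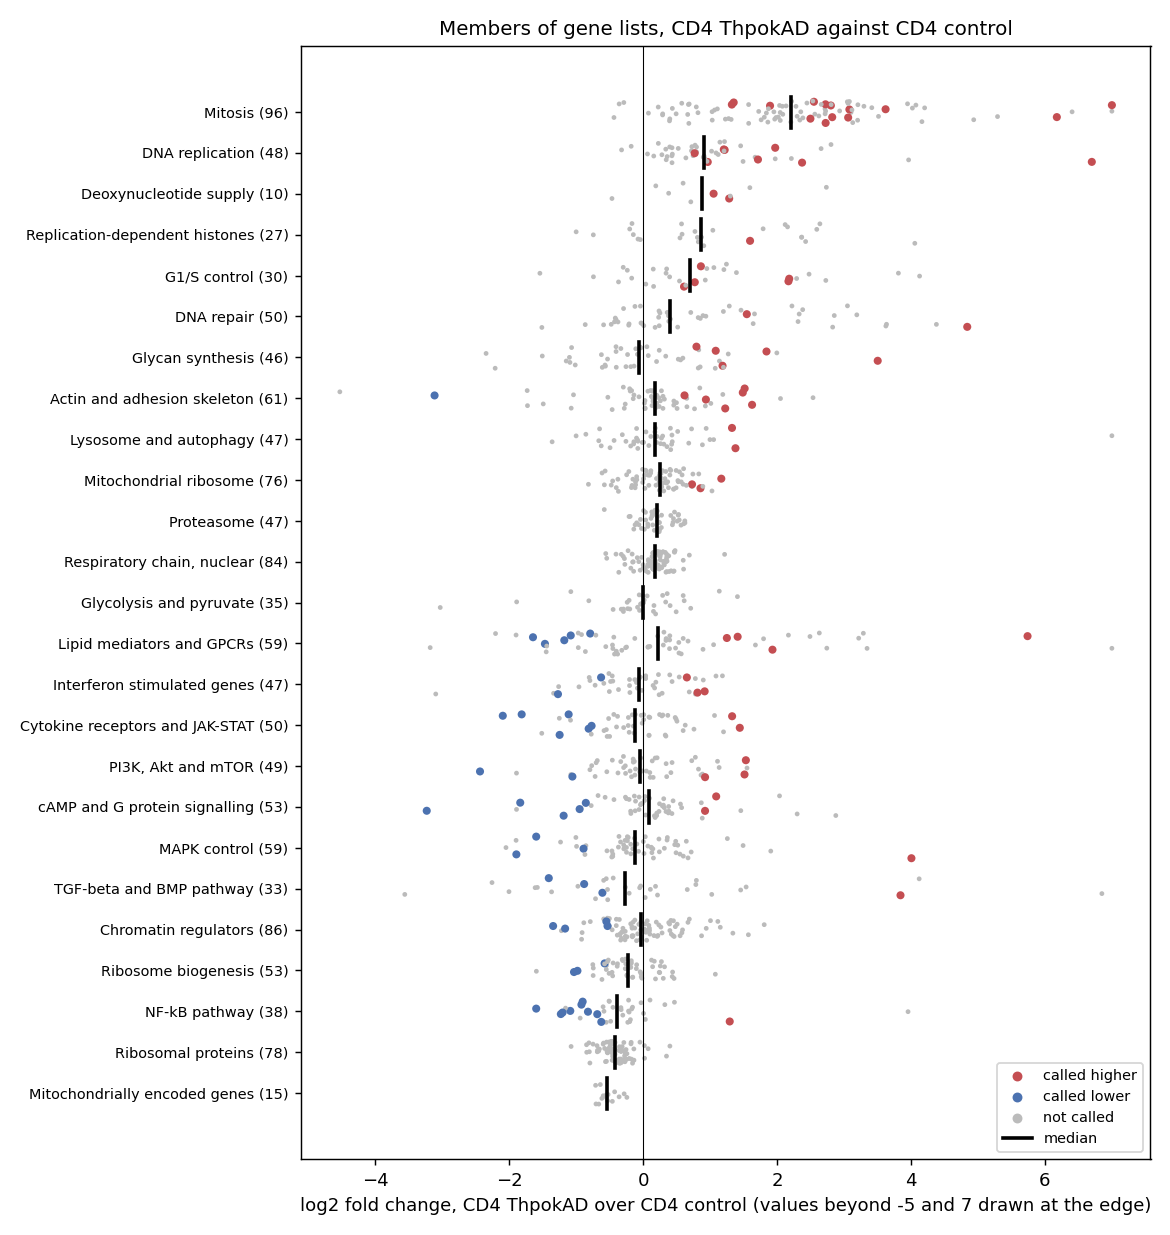
Log2 fold change (x axis) of each tested member of 25 gene lists (rows, with the number of tested members), CD4 ThpokAD over CD4 control. Red and blue points passed the edgeR test, grey points did not, and black bars are list medians; values past the ends of the axis are drawn at its ends. The medians run from 2.21 for mitosis to -0.55 for mitochondrially encoded genes, while most signalling lists have medians near 0 with called members on both sides.

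The widest shift of a whole list was in genes of cell division. Of 96 mitosis genes, 14 rose and none fell, 93 had a log2 fold change above 0, and the median was 2.21. Of 48 DNA replication genes, 8 rose and none fell, 46 lay above 0, and the median was 0.90. Of 30 genes that control entry into the DNA synthesis phase (G1/S), 5 rose and none fell, with a median of 0.70. Under every alternative scaling, test and left-out library the medians of these 3 lists stayed positive, at 1.87 to 2.45, 0.78 to 1.01 and 0.63 to 0.82. The libraries of the groups did not overlap for 68 of the 96 mitosis genes and 31 of the 48 replication genes, in the higher direction in ThpokAD. Over all tested genes that was so for 13.2%. At an unadjusted p under 0.05, 51 mitosis, 24 replication and 14 G1/S genes were higher and none was lower, and DESeq2 called 37, 16 and 9 higher and none lower.

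Genes of these lists are known to be switched on in order as a cell commits to divide: E2F factors act on replication genes at the start of DNA synthesis, and a complex that binds the CHR element (cell cycle genes homology region), often beside CCAAT boxes, acts on mitosis genes later. Promoters of 4 called genes are shown because they carry these letters within a short distance of the start site. They are RefSeq sequences of build GRCm38.p6, running from 150 bases before the annotated start to 30 bases after it, on the strand of the gene, 5′ to 3′. Capitals mark the motif that each list is described with, on either strand: E2F, written TTTGGCG, or else TTTCCCG, or else TTTCGCG, in Mcm6 and Clspn, and CHR, written TTTGAA or else TTCGAA, with CCAAT in Prc1 and Racgap1.
Mcm6 (chr1:128359676-128359855, minus strand): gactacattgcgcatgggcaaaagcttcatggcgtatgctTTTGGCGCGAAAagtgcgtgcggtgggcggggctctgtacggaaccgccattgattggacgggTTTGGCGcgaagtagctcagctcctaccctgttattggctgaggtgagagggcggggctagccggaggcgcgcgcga
Clspn (chr4:126556830-126557009, plus strand): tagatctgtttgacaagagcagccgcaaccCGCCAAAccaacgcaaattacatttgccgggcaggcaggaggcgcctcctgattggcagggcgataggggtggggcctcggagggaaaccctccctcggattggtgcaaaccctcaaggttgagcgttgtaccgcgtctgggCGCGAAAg
Prc1 (chr7:80294301-80294480, plus strand): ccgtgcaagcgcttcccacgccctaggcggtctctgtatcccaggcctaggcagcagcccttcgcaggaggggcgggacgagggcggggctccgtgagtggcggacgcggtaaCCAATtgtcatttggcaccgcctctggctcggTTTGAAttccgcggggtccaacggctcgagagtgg
Racgap1 (chr15:99651627-99651806, minus strand): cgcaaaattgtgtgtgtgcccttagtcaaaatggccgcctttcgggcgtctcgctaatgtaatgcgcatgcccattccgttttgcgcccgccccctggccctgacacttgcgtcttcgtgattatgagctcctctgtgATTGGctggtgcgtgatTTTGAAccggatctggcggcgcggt

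In Mcm6 the E2F letters began 110, 105 and 47 bases before the start site, the first pair overlapping, and in Clspn 120 bases before and 23 bases after it. In Prc1 the CCAAT box began 37 bases and the CHR 5 bases before the start, and in Racgap1 the CCAAT box, in reverse, began 12 bases before it and the CHR 6 bases after it. Promoter windows of 300 bases were found for 38 of the 48 replication genes and 78 of the 96 mitosis genes. An E2F motif was present in 21 of the 38 (55.3%), against 5.72% of all 27025 promoters and 10.1% of those of tested genes. A CHR was present in 54 of the 78 mitosis promoters (69.2%), against 19.4% of all and 14% of those of tested genes, and CCAAT in 70.5%, against 37.9% and 39%. On the gene's own strand alone E2F was in 31.6% of replication promoters, against 3.07% of all and 5.66% of those of tested genes. The CHR was there in 50% of mitosis promoters, against 11.5% and 8.32%. CCAAT, on either strand, was not particular to mitosis genes: it was in 60.5% of replication and 60% of DNA repair promoters. Among called genes, E2F was present in 4 of 8 replication promoters. CHR was present in 5 of the 8 windows found for the 14 called mitosis genes. In the deoxynucleotide supply list E2F was present in 0 of 9 promoters. These are letter matches only.

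Origin licensing, the loading of the MCM helicase onto DNA, had 4 of 12 members higher. Mcm5, a subunit of that helicase, stood at 40.3, 34.2 and 50.1 CPM in the control libraries and 149, 150.5 and 189 CPM in the ThpokAD libraries, a log2 fold change of 1.97 (SE 0.26, adjusted p = 0.00501). Mcm6 was at 116, 184 and 201 CPM in control and 432, 373 and 349 CPM in ThpokAD libraries (log2 fold change 1.20, adjusted p = 0.0188). Every ThpokAD library lay above every control library for both. The subunit genes Mcm2 and Mcm3 rose 1.95-fold and 2.33-fold (adjusted p = 0.0117 and 0.0284), while Mcm4 (log2 fold change 0.75, adjusted p = 0.0542) and Mcm7 (1.12, 0.221) did not pass. Clspn, the claspin adaptor of the replication checkpoint, was near absent from the control libraries (0.311, 0 and 0.0583 CPM) and present in each ThpokAD library (15.5, 9.02 and 15.01 CPM, adjusted p = 0.0325). Among chromatin assembly genes, the histone chaperone Asf1b was at 13.9, 21.2 and 12.1 CPM in control and 112, 62.5 and 70.1 CPM in ThpokAD libraries. With it rose Uhrf1 (3.28-fold) and Dnmt1 (1.705-fold), which copy DNA methylation to the new strand (adjusted p = 0.0178, 0.036 and 0.0363). The sliding clamp gene Pcna did not pass (85.5, 91.8 and 82.98 against 116, 105 and 109 CPM, adjusted p = 0.256). No single library decided the call of Mcm5. The calls of Mcm6, Mcm2, Mcm3, Clspn, Asf1b, Uhrf1 and Dnmt1 depended on 1 or more of the 6 CD4 libraries and CD8 control replicate 3, without which the adjusted p was 0.0507 to 0.151. Leaving out control replicates 1, 2 and 3 in turn left 3, 2 and 4 replication genes called, and leaving out ThpokAD replicates 1, 2 and 3 left 2, 3 and 4.

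Genes that feed and start DNA synthesis rose too. Of 10 genes of deoxynucleotide supply, 2 rose and none fell (median log2 fold change 0.88): Tyms, which makes thymidylate (2.44-fold, adjusted p = 0.0296), and Rrm1, the large subunit of ribonucleotide reductase (2.07-fold, adjusted p = 0.0474). Ccnd3, which encodes cyclin D3, stood at 222, 216 and 229 CPM in the control libraries and 413, 434 and 366 CPM in the ThpokAD libraries (log2 fold change 0.86, SE 0.099, adjusted p = 0.00279). Its spread within each group was small beside the gap. Ccnd2 and the kinase gene Cdk4, partner of the D cyclins, rose 1.71-fold and 1.53-fold (adjusted p = 0.036 and 0.0266). The E2F factor gene E2f2 was at 15.3, 8.74 and 12.5 CPM in control and 74.9, 58.5 and 32.4 CPM in ThpokAD libraries (adjusted p = 0.0162), whereas E2f1 did not pass (13.7, 5.201 and 5.71 against 16.6, 29.5 and 18.5 CPM, adjusted p = 0.17). One inhibitor rose as well: Cdkn2c, which encodes the p18 inhibitor of Cdk4 and Cdk6, was at 5.47, 2.91 and 5.65 against 22.3, 17.5 and 23.4 CPM (log2 fold change 2.17, adjusted p = 0.0144). Leaving out any 1 library kept the call of Ccnd3. Without 1 or more of the libraries the calls of Tyms, Rrm1, Ccnd2, Cdk4, E2f2 and Cdkn2c were lost (the 6 CD4 libraries and CD8 control replicates 1, 2 and 3, adjusted p = 0.0517 to 0.16). Rrm1 lost its call whichever of the 9 libraries was left out.

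Among mitosis genes, 9 of 36 kinesin and spindle genes rose. Racgap1, which acts at the midzone of the spindle during cell cleavage, stood at 42.4, 34.01 and 25.9 CPM in the control libraries and 247, 223 and 206 CPM in the ThpokAD libraries (log2 fold change 2.72, SE 0.25, adjusted p = 0.00089). Its partner at the midzone, the microtubule bundler Prc1, was at 2.55, 6.23 and 11.2 CPM in control and 74.5, 56.4 and 38.7 CPM in ThpokAD libraries (adjusted p = 0.0177). Tacc3, a spindle protein, was at 14.7, 19.5 and 14.8 against 76.1, 45.9 and 60.4 CPM (3.72-fold, adjusted p = 0.00435). For all 3 the groups were separate, and ThpokAD replicate 1 was the highest library. The kinesins Kif4 (0.311, 0.0572 and 0.524 against 16.5, 17.9 and 31.3 CPM) and Kif20a (2.299, 6.06 and 5.77 against 47.1, 18.4 and 34.7 CPM) rose from low levels (adjusted p = 0.0106 and 0.0252). Stmn1, Tpx2, Spc24 and Ska1 completed the group (adjusted p = 0.00145, 0.0284, 0.0267 and 0.0339), Ska1 with no count in control. Of 40 kinetochore and chromosome condensation genes 4 rose. They were the condensin genes Smc2 (2.505-fold) and Ncaph (5.65-fold), and Cdca8 (6.61-fold) and Incenp (2.55-fold), scaffolds of the Aurora B kinase. Of 20 entry kinases and cyclins only Ccnb1, cyclin B1, passed (4.47, 9.202 and 3.205 against 43.3, 35.2 and 20.6 CPM, adjusted p = 0.0293). Regardless of the library left out, the calls of Racgap1, Tacc3 and Stmn1 stood. For Prc1, Kif4, Kif20a, Tpx2, Spc24, Ska1, Smc2, Ncaph, Cdca8, Incenp and Ccnb1, the call was lost without 1 or more of the 6 CD4 libraries and CD8 control replicate 3 (adjusted p = 0.0512 to 0.153). Without control replicates 1, 2 and 3 in turn 5, 5 and 7 mitosis genes were called, and without ThpokAD replicates 1, 2 and 3 the number was 4, 8 and 7.

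Several of the best known proliferation genes were higher in every ThpokAD library and did not pass the test. Mki67, which encodes the Ki-67 antigen, was at 22.5, 46.1 and 29.3 CPM in the control libraries and 296, 171 and 218 CPM in the ThpokAD libraries (log2 fold change 2.81, SE 1.17, adjusted p = 0.286). Top2a, the topoisomerase of dividing cells, was at 40.6, 81.6 and 25.8 against 318, 164 and 200.1 CPM (adjusted p = 0.117). Rrm2, the small subunit of ribonucleotide reductase, was at 23.1, 22.1 and 33.9 against 211, 158 and 158 CPM (adjusted p = 0.101), and Birc5, survivin, at 1.55, 3.49 and 3.38 against 61.4, 38.5 and 37.2 CPM (adjusted p = 0.159). For all 4 the lowest ThpokAD library lay above the highest control library. The fit also holds the CD8 control libraries, where Mki67 was at 28.6, 0 and 3.08 CPM, Rrm2 at 41.2, 3.59 and 8.38 CPM and Birc5 at 6.81, 0 and 0.493 CPM. When the 6 CD4 libraries were fitted alone, Mki67, Rrm2 and Birc5 were called (adjusted p = 0.00919, 0.00408 and 0.006), Top2a was not (0.0528), and 25 mitosis genes and 12 replication genes rose. Summed over its list, mitosis expression was 1792, 2012 and 1901 CPM in the control libraries and 5204, 3601 and 3756 CPM in the ThpokAD libraries, replicate 1 being the highest. Of 27 histone genes of the replication-dependent clusters, 1 rose (Hist1h1e, 3.02-fold, adjusted p = 0.0392) and the median was 0.87. Of 50 DNA repair genes, 2 rose: Palb2, a partner of the Brca proteins (0.0621, 0.686 and 0.408 against 7.38, 13.9 and 12.5 CPM, adjusted p = 0.0127), and H2afx, the histone marked at breaks (2.92-fold, adjusted p = 0.0199). The calls of Hist1h1e, Palb2 and H2afx depended on 1 or more of the 6 CD4 libraries and CD8 control replicate 2, without which the adjusted p was 0.0601 to 0.154.

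**Figure D2:**
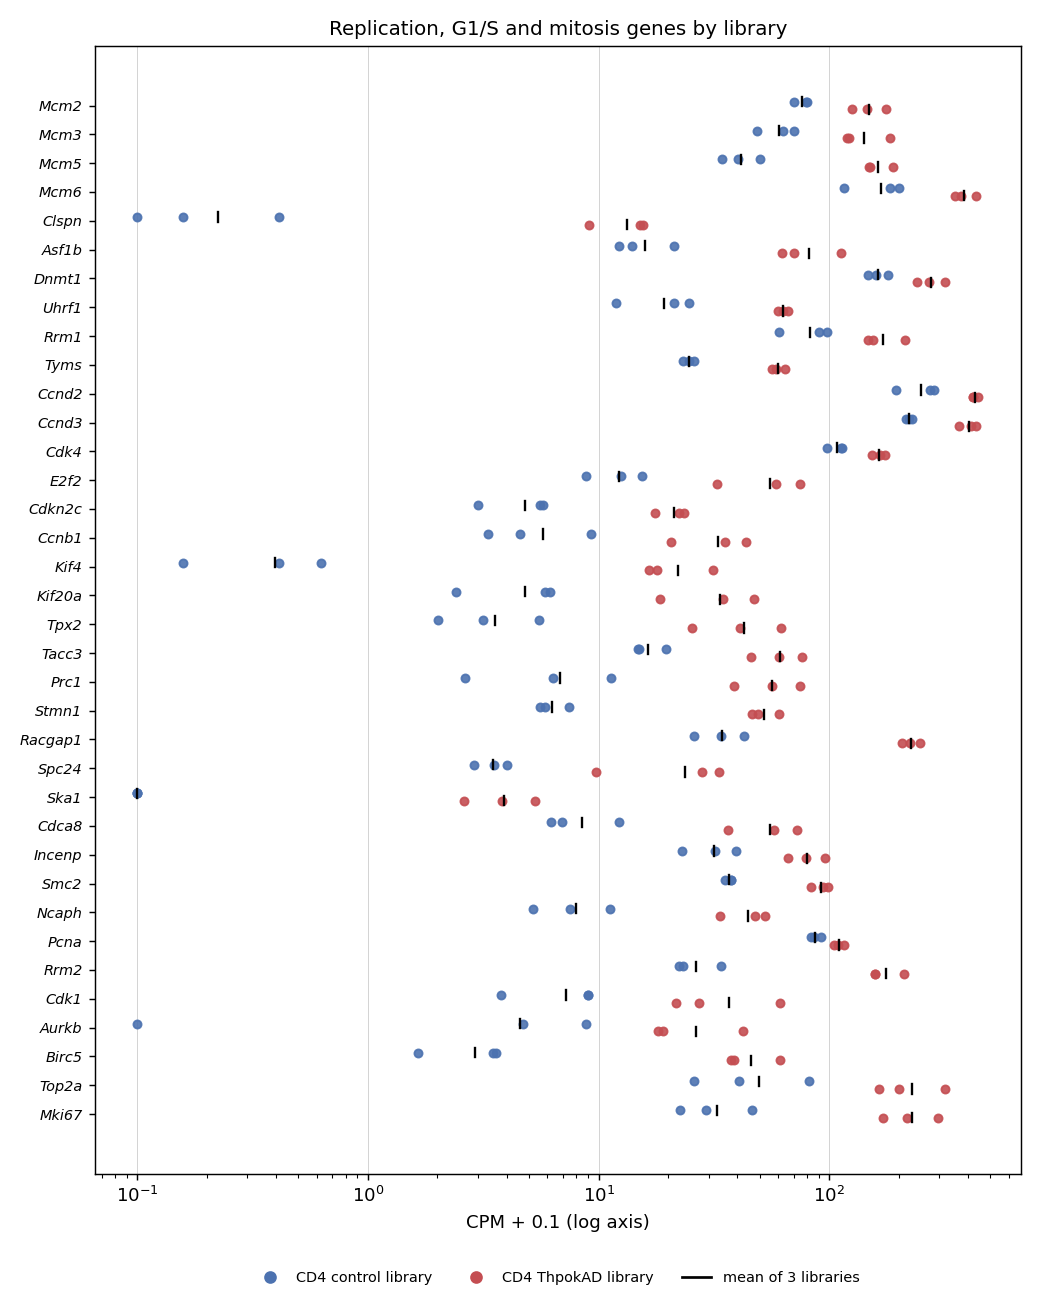
CPM (x axis, log scale, 0.1 added) of the called replication, G1/S and mitosis genes and of 7 well-known genes that did not pass (Pcna to Mki67), by library; points are libraries and black ticks the mean of 3. ThpokAD points lie to the right of control points for each called gene, with wide gaps in Clspn, Kif4 and Ska1, and Pcna, which did not pass, has a narrow gap.

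The NF-kB list moved the other way. Of 38 genes, 9 fell and 1 rose, 31 had a log2 fold change below 0, and the median was -0.39 (-0.45 to -0.36 over the alternatives). The NF-kB pathway carries signals from receptors of the TNF family through TRAF adaptors and kinases to the Rel family of transcription factors. Proteins of the IkB family bind these factors. Adaptors, kinases and IkB proteins were among the members that fell in ThpokAD, and no receptor or Rel protein of the list was called. Of the adaptors, Traf1 stood at 701, 672 and 577 CPM in the control libraries and 287, 301 and 259 CPM in the ThpokAD libraries (log2 fold change -1.20, SE 0.14, adjusted p = 0.00291). Traf5 and the ubiquitin ligase Birc3 were 1.87-fold and 1.54-fold lower (adjusted p = 0.0294 and 0.0427). Of the kinases, Map3k14, the NIK kinase of the alternative pathway, was at 283, 249 and 234 CPM in control and 64.3, 96.1 and 92.8 CPM in ThpokAD libraries (log2 fold change -1.60, SE 0.17, adjusted p = 0.00177). Its ThpokAD libraries were all under a level of 100 CPM that every control library exceeded more than 2-fold. Ikbkb, the central kinase of the classical pathway, was 1.89-fold and its relative Ikbke 2.34-fold lower (adjusted p = 0.0197 and 0.0135). Of the IkB proteins, Nfkbiz was at 1316, 1594 and 1424 against 775, 742 and 931 CPM, and Nfkbid at 765, 939 and 1046 against 293, 463 and 538 CPM (adjusted p = 0.0136 and 0.0366). Nfkbie was 1.61-fold lower (adjusted p = 0.0404). The calls of Traf1 and Map3k14 held whichever library was left out. Those of Traf5, Birc3, Ikbkb, Ikbke, Nfkbiz, Nfkbid and Nfkbie were lost without 1 or more of the 6 CD4 libraries and CD8 control replicates 1, 2 and 3 (adjusted p = 0.0517 to 0.15).

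The genes of the transcription factors themselves did not pass. Rela had a log2 fold change of -0.50 (adjusted p = 0.0525), Relb -0.94 (0.0543), Nfkb2 -0.61 (0.0924), Rel -0.59 (0.192) and Nfkb1 -0.33 (0.625). Nor did the feedback genes Nfkbia (-0.19, 0.642) and Tnfaip3 (-0.23, 0.71). The single member that rose was Icam1, an adhesion molecule, at 123, 115 and 152 CPM in the control libraries and 323, 325 and 307 CPM in the ThpokAD libraries (log2 fold change 1.29, adjusted p = 0.0058). Summed over the list, expression was 14917, 15160 and 15573 CPM in control and 10557, 11663 and 12519 CPM in ThpokAD libraries, without overlap. The libraries of the groups did not overlap, in the lower direction, for 21 of the 38 genes, against 12.5% of all tested genes. Without control replicates 1, 2 and 3 in turn 3, 4 and 3 members were called lower, and without ThpokAD replicates 1, 2 and 3 the number was 3, 5 and 5. The TNF family ligands Tnfsf8 (CD30 ligand, 369, 473 and 460.3 against 125, 140.3 and 78.6 CPM), Ltb (lymphotoxin beta, 1.74-fold lower) and Tnfsf11 (RANKL, 109, 106 and 108 against 17.4, 25.5 and 23.7 CPM) also fell (adjusted p = 0.0124, 0.0144 and 0.00279). No single library decided the calls of Icam1 and Tnfsf11. The calls of Tnfsf8 and Ltb depended on 1 or more of CD4 control replicates 2 and 3 and ThpokAD replicates 1 and 3, without which the adjusted p was 0.0512 to 0.0552.

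Cytokine receptors changed in both directions. Of 29 tested receptor genes, 4 fell and 2 rose, and of 21 kinases, STAT factors and brakes 2 fell and none rose. Il7r, the receptor chain through which memory cells sense IL-7, stood at 1308, 1041 and 976 CPM in the control libraries and 361, 306 and 278 CPM in the ThpokAD libraries (log2 fold change -1.81, adjusted p = 0.000381). Il6ra was at 81.6, 94.1 and 66.9 CPM in control and 18.9, 24.6 and 13.3 CPM in ThpokAD libraries (4.28-fold lower, adjusted p = 0.0113). Il4ra and Il21r were 2.16-fold and 1.76-fold lower (adjusted p = 0.0101 and 0.0219). Each of these 4 receptors is known to signal in helper T cells, and for each the groups were separate. The receptors that rose were Il18rap, a chain of the IL-18 receptor, at 179, 202 and 150.3 against 423, 429.9 and 591 CPM (adjusted p = 0.00291), and Il10ra, at 41.997, 58.5 and 43.7 against 143, 125 and 94.9 CPM (adjusted p = 0.0158). Downstream, Socs3, a feedback inhibitor of IL-6 type signals, was at 569, 566 and 619 CPM in control and 220.4, 284 and 235 CPM in ThpokAD libraries (log2 fold change -1.25, SE 0.13, adjusted p = 0.00145). The IL-2 and IL-7 transducer Stat5b was 1.71-fold lower (adjusted p = 0.025). Neither Jak1 (log2 fold change 0.49, adjusted p = 0.0673) nor Il2rb, the shared chain of the IL-2 and IL-15 receptors (0.33, 0.44), passed. No single library decided the calls of Il7r, Il18rap and Socs3. The calls of Il6ra, Il4ra, Il21r, Il10ra and Stat5b depended on 1 or more of the 6 CD4 libraries, without which the adjusted p was 0.0507 to 0.099.

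Of 47 interferon stimulated genes, 3 rose and 2 fell, and the median was -0.06. Irf7, the amplifier of the type I interferon response, was at 296, 287 and 259 CPM in control and 494, 517 and 466 CPM in ThpokAD libraries (adjusted p = 0.012). Gbp7 and Sp100 rose 1.89-fold and 1.57-fold (adjusted p = 0.0253 and 0.0298). Slfn2, a schlafen gene linked to T cell quiescence, fell from 754, 775 and 741 CPM to 452, 499.7 and 517 CPM (log2 fold change -0.63, SE 0.089, adjusted p = 0.00771), and the GTPase gene Irgm2 was 2.41-fold lower (adjusted p = 0.0197). The list thus had no common direction. Leaving out any 1 library kept the call of Slfn2. Without 1 or more of the libraries the calls of Irf7, Gbp7, Sp100 and Irgm2 were lost (the 6 CD4 libraries and CD8 control replicate 2, adjusted p = 0.0505 to 0.124).

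TGF-beta restrains T cells through a pair of receptors and SMAD factors. Of 33 tested genes of this pathway, 3 fell and 1 rose, and the median was -0.27. The receptor gene Tgfbr2 was at 653, 653 and 594 CPM in the control libraries and 343, 433 and 470.5 CPM in the ThpokAD libraries (1.52-fold lower, adjusted p = 0.046). Skil and Tgif1, corepressors that limit SMAD activity, were at 498, 525 and 416 against 158, 192 and 192 CPM (log2 fold change -1.41, SE 0.17, adjusted p = 0.00314) and at 771, 776 and 682 against 374, 438 and 398 CPM (-0.88, SE 0.10, adjusted p = 0.00291). So the receptor and 2 brakes of the pathway fell side by side, each without overlap between the groups. Lrrc32 (GARP), which holds latent TGF-beta at the surface of regulatory T cells and platelets, rose from 1.305, 3.14 and 3.904 CPM to 38.8, 39.1 and 42.4 CPM (14.4-fold, adjusted p = 0.00868). Foxp3, which defines regulatory T cells, was at 0, 4.52 and 2.33 CPM in control and 50.1, 11.8 and 25.6 CPM in ThpokAD libraries and did not pass (adjusted p = 0.207). The 10 markers of regulatory T cells summed to 608 to 672 CPM and 658 to 885 CPM, with Lrrc32 alone called. Their part in the rise of Lrrc32 was not tested. Smad7, the inhibitory SMAD, was at 156, 150.3 and 108 against 87.5, 88.9 and 111 CPM (adjusted p = 0.194). Of 33 Wnt pathway genes 2 fell and none rose (7 lower and 2 higher at an unadjusted p under 0.05, and 3 lower and 1 higher by DESeq2). They were Tcf7 and Lef1, the nuclear partners of beta-catenin (2.31-fold and 1.61-fold lower, adjusted p = 0.00468 and 0.046). The Wnt target Axin2 was at 23.05, 13.1 and 10.9 against 5.94, 6.89 and 9.12 CPM and did not pass (adjusted p = 0.277). Of 28 Notch pathway genes 1 rose and 1 fell (3.57% each way, against 1.81% higher and 0.928% lower over all tested genes). Notch3 had no count in control and stood at 5.74, 3.77 and 20.5 CPM in the ThpokAD libraries (adjusted p = 0.0191). Psen2, part of the protease that releases active Notch, was 1.95-fold lower (adjusted p = 0.0301). The Notch targets Hes1 and Dtx1 did not pass (adjusted p = 0.966 and 0.196). Regardless of the library left out, the calls of Skil, Tgif1, Lrrc32 and Tcf7 stood. For Tgfbr2, Lef1, Notch3 and Psen2, the call was lost without 1 or more of the 6 CD4 libraries and CD8 control replicates 1, 2 and 3 (adjusted p = 0.0511 to 0.166). Tgfbr2 and Lef1 lost their calls whichever of the 9 libraries was left out. Notch3 was also not called by edgeR with bias-adjusted deviances (adjusted p = 0.0846).

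In the cAMP list, whose members make, degrade or answer to the second messenger cAMP or tune G proteins, 5 of 53 genes fell and 2 rose. Both phosphodiesterase genes that passed fell. Pde4d stood at 187, 189 and 177 CPM in the control libraries and 102, 91.5 and 92.5 CPM in the ThpokAD libraries (log2 fold change -0.95, SE 0.12, adjusted p = 0.00437), and Pde3b was 1.81-fold lower (adjusted p = 0.0407). Crem, a nuclear factor that answers to cAMP, was at 521, 472 and 399 CPM in control and 192, 228 and 192 CPM in ThpokAD libraries (adjusted p = 0.0144). Ramp3, which escorts calcitonin-type receptors to the surface, fell from 288, 172 and 186 CPM to 24.8, 28.5 and 15.4 CPM (log2 fold change -3.23, adjusted p = 0.00403). The adenylyl cyclase gene Adcy3 rose 2.13-fold (adjusted p = 0.0447). The RGS proteins, which switch G proteins off, moved apart: Rgs1 rose from 353, 295 and 237 CPM to 607, 494 and 579 CPM, and Rgs10 fell from 98.6, 112 and 103 CPM to 30.8, 36.5 and 20.5 CPM (adjusted p = 0.0197 and 0.0304). The calls of Pde4d and Ramp3 held whichever library was left out. Those of Pde3b, Crem, Adcy3, Rgs1 and Rgs10 were lost without 1 or more of the 6 CD4 libraries and CD8 control replicates 1, 2 and 3 (adjusted p = 0.0501 to 0.146). Adcy3 lost its call whichever of the 9 libraries was left out.

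Receptors that steer lymphocyte traffic changed in both directions. Of 39 tested receptors for lipids or without a settled ligand, 5 fell and 2 rose. S1pr1, the sphingosine-1-phosphate receptor with which resting lymphocytes leave lymphoid organs, stood at 1289, 1466 and 1304 CPM in control and 667, 645 and 606 CPM in ThpokAD libraries (2.12-fold lower, adjusted p = 0.0154). S1pr5, the receptor for the same lipid on NK and terminal effector cells, stood at 5.53, 2.11 and 1.52 against 87.9, 130.5 and 269 CPM (log2 fold change 5.74, adjusted p = 0.00166). Gpr183 (EBI2), which guides cells along oxysterol gradients at the edge of follicles, was at 755, 810.3 and 977 against 484, 554 and 432 CPM (adjusted p = 0.0188). Thus the ThpokAD libraries were lower for S1pr1 and Gpr183 and higher for S1pr5, without overlap. Gpr132, a receptor of lysolipids and acid, was at 378, 358 and 300.1 against 164, 141 and 153 CPM (log2 fold change -1.18, SE 0.12, adjusted p = 0.00181). Gpr55 and F2rl1, a receptor cut by proteases, were 2.76-fold and 3.13-fold lower (adjusted p = 0.0444 and 0.0405). F2r, the thrombin receptor, rose from 55.9, 68.6 and 47.6 CPM to 207, 208 and 241 CPM (log2 fold change 1.93, SE 0.24, adjusted p = 0.00435). Of the lipid enzymes in the list, Ugcg, which makes glucosylceramide, was at 270.4, 289 and 231 against 613, 621 and 646 CPM (adjusted p = 0.00102), and Smpd1, acid sphingomyelinase, rose 2.66-fold (adjusted p = 0.0144). Ugcg uses ceramide and Smpd1 releases it. Cerk, the ceramide kinase, which was in no list, rose 7.15-fold (8.39, 11.5 and 10.95 against 81.6, 64.97 and 74.6 CPM, adjusted p = 0.000336). No single library decided the calls of S1pr5, Gpr132, F2r, Ugcg and Cerk. The calls of S1pr1, Gpr183, Gpr55, F2rl1 and Smpd1 depended on 1 or more of the 6 CD4 libraries and CD8 control replicates 1 and 3, without which the adjusted p was 0.0502 to 0.166.

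The PI3K list had 3 of 49 genes higher (6.12%, against 1.81% of all tested genes) and 2 lower (4.08%, against 0.928%). Its median was -0.05. Sgk1, a kinase related to Akt, stood at 115, 132 and 113 CPM in the control libraries and 318, 340.1 and 383 CPM in the ThpokAD libraries (log2 fold change 1.53, SE 0.13, adjusted p = 0.00076). Inpp4b, a lipid phosphatase that limits the pathway, fell from 273, 269.9 and 254 CPM to 142, 131 and 109.96 CPM (log2 fold change -1.06, SE 0.14, adjusted p = 0.00468). Trib2, a pseudokinase, fell from 439.9, 638 and 455 CPM to 99.1, 105 and 79.2 CPM (adjusted p = 0.00102). The groups were far apart for all 3. The adaptors Pik3ap1 and Dok2 rose 2.86-fold and 1.899-fold (adjusted p = 0.0252 and 0.0144). Of 59 MAPK genes 3 fell and 1 rose. Besides Map3k14, Dusp10, a phosphatase of JNK and p38, fell from 356, 380.02 and 307 CPM to 108, 87.7 and 84.9 CPM (adjusted p = 0.0112). Spry2, a brake of growth factor signals, rose from 0.0621, 0.286 and 0.699 CPM to 6.19, 6.02 and 4.93 CPM (adjusted p = 0.0398). Of 32 genes of calcium signalling 2 rose: Ppp3ca, the catalytic subunit of calcineurin (56.5, 56.98 and 68.5 against 155, 126 and 164 CPM, adjusted p = 0.00314), and Anxa2, a calcium-dependent membrane binder (140.1, 119.5 and 149 against 484, 384 and 372 CPM, adjusted p = 0.00247). Leaving out any 1 library kept the calls of Sgk1, Inpp4b, Trib2, Ppp3ca and Anxa2. Without 1 or more of the libraries the calls of Pik3ap1, Dok2, Dusp10 and Spry2 were lost (the 6 CD4 libraries and CD8 control replicates 1 and 3, adjusted p = 0.0563 to 0.155).

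**Figure D3:**
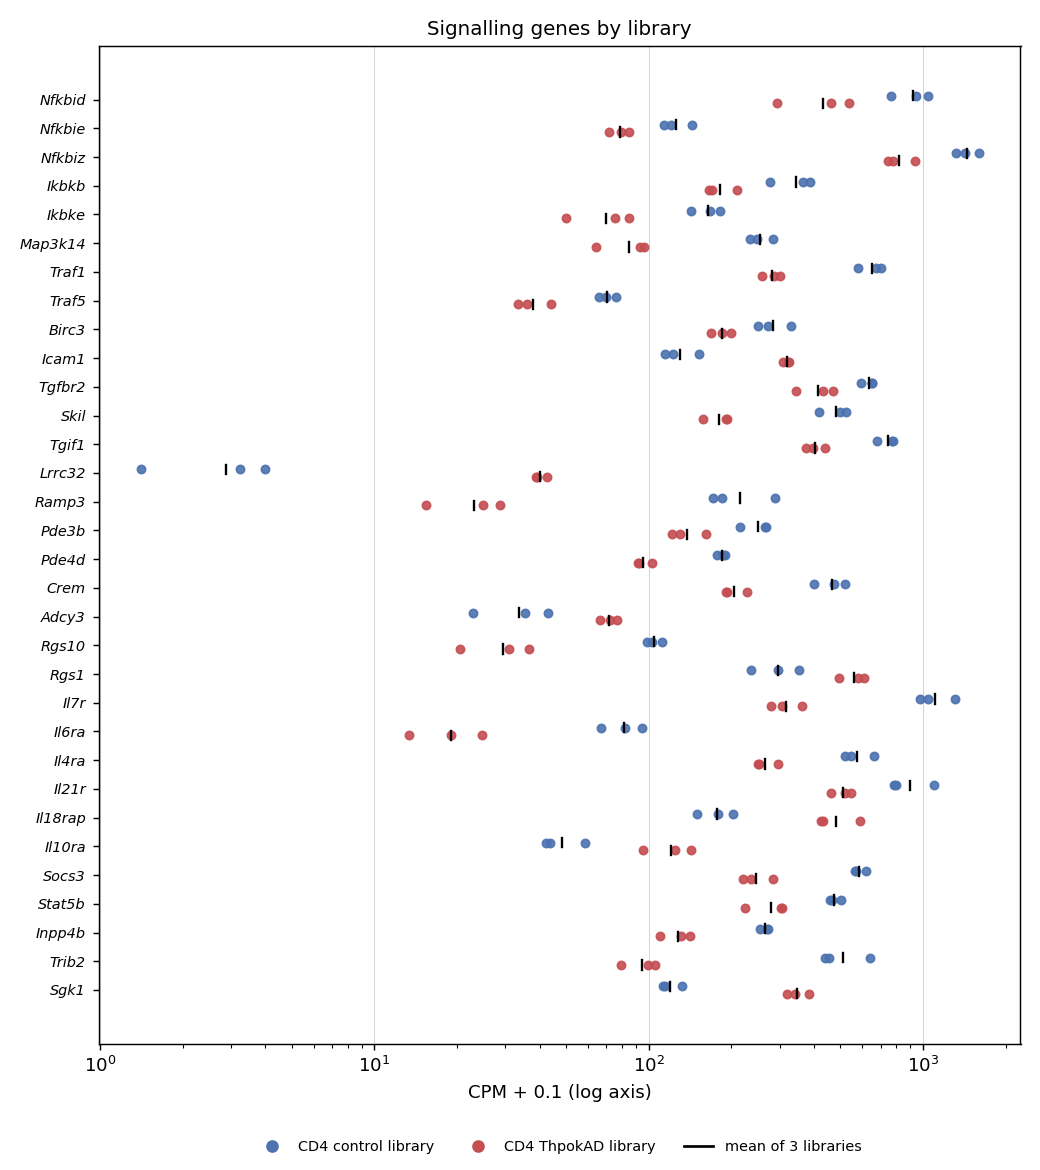
CPM (x axis, log scale, 0.1 added) of called signalling genes by library, from the NF-kB list at the top through TGF-beta, cAMP and cytokine receptor genes to Sgk1; points are libraries and black ticks the mean of 3. Control and ThpokAD points do not overlap for any gene drawn, with ThpokAD lower for 9 of the 10 NF-kB genes and higher for Icam1. The genes were drawn because they were called, so the gaps add no support.

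Several genes that shape the cytoskeleton rose. Of 61 actin and adhesion skeleton genes, 6 rose and 1 fell (median 0.18). Zyx, zyxin of focal adhesions, stood at 321, 298 and 249.6 CPM in the control libraries and 879, 682 and 876 CPM in the ThpokAD libraries (log2 fold change 1.49, SE 0.14, adjusted p = 0.00124). Vim, the intermediate filament vimentin, was at 296, 294 and 225 against 1058, 585 and 687 CPM, and its linker Plec, plectin, rose 1.91-fold (adjusted p = 0.0144 and 0.0271). The actin capping and severing proteins Gsn and Capg rose 3.09-fold and 2.34-fold, and the myosin of lymphocytes Myo1g 1.53-fold (adjusted p = 0.025, 0.0478 and 0.0278). Espn, an actin bundler, fell from 39.4, 29.1 and 28.4 CPM to 4.39, 3.39 and 3.39 CPM (log2 fold change -3.11, SE 0.34, adjusted p = 0.00233). It was the only called member of the list that was lower. Regardless of the library left out, the calls of Zyx and Espn stood. For Vim, Plec, Gsn, Capg and Myo1g, the call was lost without 1 or more of the 6 CD4 libraries and CD8 control replicates 1, 2 and 3 (adjusted p = 0.0507 to 0.168).

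Of 50 guidance and adhesion receptors, 3 rose and 2 fell (6% and 4%, against 1.81% and 0.928% of all tested genes). Sema4a, a semaphorin that acts as a costimulator, stood at 159, 176 and 206 CPM in control and 456, 435 and 493 CPM in ThpokAD libraries (log2 fold change 1.36, SE 0.12, adjusted p = 0.00076). Cd48, a ligand of the CD2 family, was at 269, 199 and 215 against 629.6, 514 and 643 CPM, and Cd226, the activating receptor DNAM-1, at 60.5, 72.2 and 75.1 against 219, 181 and 185 CPM (adjusted p = 0.00403 and 0.00437). For all 3 every ThpokAD library lay above every control library. The tetraspanin gene Cd9 was 2.28-fold lower (adjusted p = 0.046). Cdh1, E-cadherin, was low in control (2.24, 1.6003 and 1.69 CPM) and had no count in ThpokAD, at least 34.9-fold lower against a floor of 3 counts over the group (adjusted p = 0.0417). The integrin pair of LFA-1, Itgal and Itgb2, which binds Icam1 and was in no list, rose 1.76-fold and 1.66-fold (adjusted p = 0.00561 and 0.00878). The calls of Sema4a, Cd48, Cd226, Itgal and Itgb2 held whichever library was left out. Those of Cd9 and Cdh1 were lost without 1 or more of the 6 CD4 libraries and CD8 control replicate 3 (adjusted p = 0.0621 to 0.163). Cdh1 was also not called by edgeR with bias-adjusted deviances or with a replicate block (adjusted p = 0.366 and 0.11).

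Of 46 genes in the glycan list 5 rose and none fell, while the median of the list was -0.06. At an unadjusted p under 0.05, 9 were higher and 9 lower, and DESeq2 called 8 higher and 5 lower, limma-trend 5 and 2 and edgeR with bias-adjusted deviances 5 and 3. Selplg encodes PSGL-1, the protein that carries the sugar ligand of selectins, and stood at 1188, 1147 and 1066 CPM in the control libraries and 1983, 1869 and 2052 CPM in the ThpokAD libraries (log2 fold change 0.80, SE 0.11, adjusted p = 0.00537). St3gal4, a sialyltransferase that helps build selectin ligands, was at 48.7, 47.4 and 63.2 against 121, 123 and 118 CPM (1.19, SE 0.17, adjusted p = 0.00891), and B4galt5 rose 2.12-fold (adjusted p = 0.0148). The chondroitin sulfotransferases Chst11 (1.18, 6.69 and 1.57 against 31.3, 40.2 and 35.9 CPM) and Chst12 (8.95, 12.2 and 10.7 against 41.9, 40.6 and 31.99 CPM) rose from low levels (adjusted p = 0.0353 and 0.0148). Chsy1, the chondroitin synthase, which was in no list, rose from 63.6, 86.6 and 101 CPM to 326, 352 and 391 CPM (adjusted p = 0.000836). These 3 genes act in chondroitin sulfate synthesis and were higher in every ThpokAD library. All 3 were picked because they were called, so their separate groups add no support. Gcnt1, a branching enzyme of selectin ligands, varied within both groups (14.1, 1.54 and 9.03 against 14.6, 4.54 and 0.424 CPM) and did not pass (adjusted p = 0.945). Regardless of the library left out, the calls of Selplg, St3gal4 and Chsy1 stood. For B4galt5, Chst11 and Chst12, the call was lost without 1 or more of the 6 CD4 libraries and CD8 control replicate 2 (adjusted p = 0.0505 to 0.121).

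**Figure D4:**
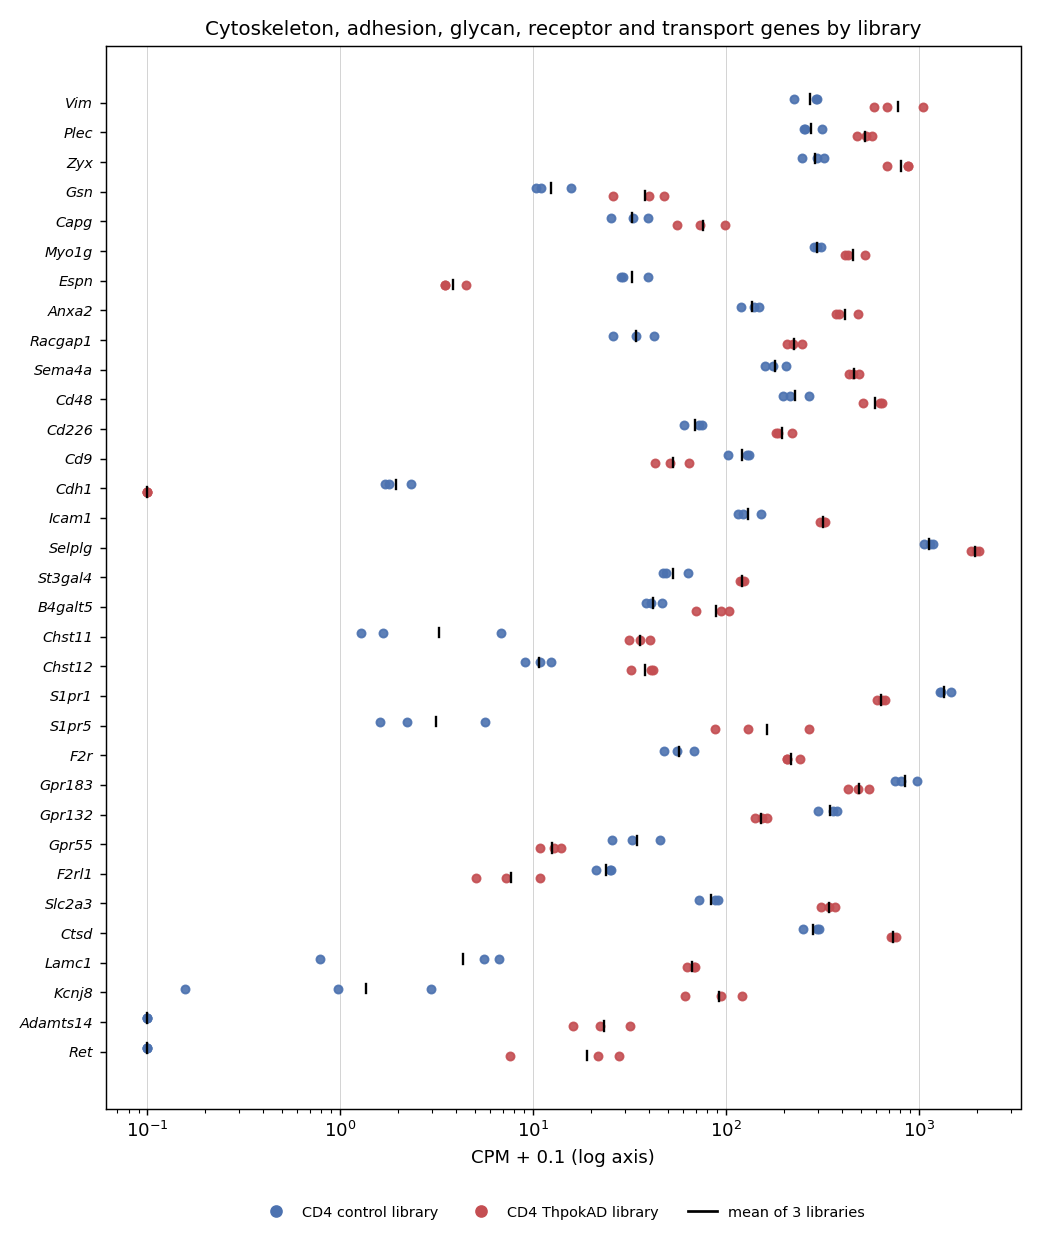
CPM (x axis, log scale, 0.1 added) of genes of the cytoskeleton, adhesion, glycan synthesis, traffic receptors, transport and matrix by library; points are libraries and black ticks the mean of 3. Control and ThpokAD points are separate for each gene, and Adamts14 and Ret have all 3 control points, and Cdh1 all 3 ThpokAD points, at a count of 0. All genes drawn were called, so the gaps add no support.

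Some genes without a count in any control library were clearly present in ThpokAD. There were 21 called genes of this kind, and 7 called genes had no count in ThpokAD. Adamts14, a protease that trims procollagen, stood at 22.1, 15.97 and 31.6 CPM in the ThpokAD libraries and Ret, a receptor tyrosine kinase of neurotrophic factors, at 27.8, 21.5 and 7.48 CPM. Plekha6 was at 19.1, 14.7 and 5.83 CPM and Tmem151a at 6.59, 9.41 and 23.9 CPM. Against a floor of 3 counts over the control group these were at least 393.5-fold, 323.1-fold, 225.2-fold and 223.1-fold higher (adjusted p = 0.000588, 0.00279, 0.00291 and 0.0038). Their levels differed up to several fold between ThpokAD libraries, and in Ret and Plekha6 replicate 3 was the lowest while in Tmem151a it was the highest. Kcnj8, a potassium channel subunit, rose from 0.8698, 0.0572 and 2.86 CPM to 61.5, 94.5 and 121 CPM (adjusted p = 0.00403), and Lamc1, a laminin chain, from 0.683, 5.49 and 6.53 CPM to 62.8, 68.5 and 69.1 CPM (adjusted p = 0.012). Nedd4, a ubiquitin ligase, rose from 10.5, 4.401 and 19.5 CPM to 84.9, 124 and 131 CPM (adjusted p = 0.00839). In the other direction, Gabrr2, a GABA receptor subunit, was at 4.72, 2.11 and 4.78 CPM in control and had no count in ThpokAD (adjusted p = 0.0219). Angptl2, a secreted angiopoietin-like protein, fell from 81.2, 60.2 and 54.2 CPM to 15.3, 10.99 and 12.6 CPM (adjusted p = 0.00634). Among the 10 largest falls were also Dstyk, a kinase gene (17.8, 26.1 and 11.4 against 1.297, 0.984 and 2.65 CPM, adjusted p = 0.0252), Ifitm1, an interferon-induced membrane protein (19.9, 5.03 and 8.62 against 1.796, 1.37 and 1.17 CPM, adjusted p = 0.0418), and Mpzl3 (68.9, 43.2 and 47.96 against 12.9, 16.2 and 3.71 CPM, adjusted p = 0.0423). The library kits did not mark strand, so reads of overlapping genes cannot be told apart. Leaving out any 1 library kept the calls of Adamts14, Ret, Plekha6, Tmem151a, Kcnj8, Nedd4 and Angptl2. Without 1 or more of the libraries the calls of Lamc1, Gabrr2, Dstyk, Ifitm1 and Mpzl3 were lost (the 6 CD4 libraries and CD8 control replicates 1, 2 and 3, adjusted p = 0.0506 to 0.168).

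Channels, carriers of water and binders of metal had a few called members. Of 49 ion channel genes 3 rose and 1 fell (6.12% and 2.04%, against 1.81% and 0.928% of all tested genes). With Kcnj8 rose the potassium channel Kcnk5 (30.4, 28.2 and 31.6 against 55.5, 55.8 and 86.7 CPM, adjusted p = 0.0209) and the chloride channel Clic1 (1.51-fold, adjusted p = 0.0394). Itpr2, a calcium release channel, was 1.65-fold lower (adjusted p = 0.0234). Cacnb1, a calcium channel subunit gene that was in no list, was at 11.7, 9.83 and 15.3 against 2.24, 2.95 and 2.65 CPM (adjusted p = 0.0314). Aqp9, which passes water and glycerol, was at 5.405, 2.801 and 1.57 against 14.1, 25.3 and 22.6 CPM (adjusted p = 0.0174). The metal binder Mt1, metallothionein, was at 4.1003, 4.86 and 3.79 against 16.4, 13.1 and 11.5 CPM (adjusted p = 0.0278). Of these 6 genes Kcnk5, Clic1, Aqp9 and Mt1 were higher and Itpr2 and Cacnb1 lower in every ThpokAD library than in every control library. Of ubiquitin ligase genes, Fbxl2 rose (0.435, 1.03 and 1.86 against 10.1, 16.2 and 9.02 CPM, adjusted p = 0.0189), and Rnf125 fell (1.39-fold lower, adjusted p = 0.0499). Cd55, which protects cells from complement, was at 63.8, 63.5 and 63.9 against 25.4, 33.03 and 31.2 CPM (adjusted p = 0.0117). Without 1 or more of the libraries the calls of Kcnk5, Clic1, Itpr2, Cacnb1, Aqp9, Mt1, Fbxl2, Rnf125 and Cd55 were lost (the 6 CD4 libraries and CD8 control replicates 1 and 2, adjusted p = 0.0501 to 0.179).

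Few metabolic enzymes passed the test. Of 35 glycolysis genes none passed edgeR's test, 1 higher and 2 lower had an unadjusted p under 0.05, and DESeq2 called 1 higher and 1 lower and limma-trend 0 and 1, with Gapdh at a log2 fold change of -0.29 and Ldha at -0.08 (adjusted p = 0.638 and 0.865). None of the 23 genes of the pentose phosphate, serine and one-carbon pathways passed edgeR's test, 4 higher and 1 lower had an unadjusted p under 0.05, and DESeq2 called 1 higher and 1 lower and limma-trend 0 and 0. Of 23 genes of purine and pyrimidine synthesis none passed edgeR's test, 2 higher and 1 lower had an unadjusted p under 0.05, and DESeq2 called 1 higher and 0 lower and limma-trend 0 and 0. Among transporters, Slc2a3, the glucose transporter GLUT3, stood at 90.5, 72.8 and 87.8 CPM in the control libraries and 311, 369 and 344 CPM in the ThpokAD libraries (log2 fold change 2.03, SE 0.15, adjusted p = 0.000358). The glutamine and alanine transporter Slc38a2 was 1.48-fold lower and the mitochondrial ADP and ATP carrier Slc25a4 1.69-fold higher (adjusted p = 0.0234 and 0.0344). Got1, an aminotransferase of the malate-aspartate shuttle, fell from 343, 311 and 315 CPM to 156, 173 and 154 CPM (log2 fold change -1.01, SE 0.13, adjusted p = 0.00403), and Srebf2, the master factor of cholesterol synthesis, was 2.08-fold lower (adjusted p = 0.0281). Ctsd, the lysosomal protease cathepsin D, rose from 251, 303 and 298 CPM to 759, 716 and 739.8 CPM (log2 fold change 1.38, SE 0.12, adjusted p = 0.000713). Prdx6 and Fth1, which guard against peroxides and free iron, were 1.73-fold and 1.36-fold lower (adjusted p = 0.011 and 0.0344). Regardless of the library left out, the calls of Slc2a3, Got1 and Ctsd stood. For Slc38a2, Slc25a4, Srebf2, Prdx6 and Fth1, the call was lost without 1 or more of the 6 CD4 libraries (adjusted p = 0.0501 to 0.131).

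Few genes of the translation machinery passed the test, and the medians of its lists differed. None of the 78 cytosolic ribosomal protein genes passed edgeR's test, 0 higher and 19 lower had an unadjusted p under 0.05, and DESeq2 called 0 higher and 5 lower and limma-trend 0 and 0. Of the 78, 73 had a log2 fold change below 0, and the median was -0.42 (-0.52 to -0.34 over the alternatives). Translation factors (68 tested, 41 below and 27 above 0, median -0.07) and tRNA synthetases (35 tested, 16 below and 19 above 0, median 0.07) had no called member, with 1 lower and 5 higher, and 1 lower and 3 higher, at an unadjusted p under 0.05, and DESeq2 called 0 lower and 1 higher, and 1 lower and 3 higher. Of 53 ribosome biogenesis genes 3 fell and none rose, with a median of -0.22: Gnl3, Ppan and Nop58, which act in the nucleolus, were 2.05-fold, 1.97-fold and 1.49-fold lower (adjusted p = 0.027, 0.0284 and 0.0478). Of 15 mitochondrially encoded genes none passed edgeR's test, 0 higher and 5 lower had an unadjusted p under 0.05, and DESeq2 called 0 higher and 0 lower and limma-trend 0 and 0. All 15 had a log2 fold change below 0 (median -0.55). Their summed level was 39348, 37690 and 23620 CPM in control and 24242, 18036 and 24942 CPM in ThpokAD libraries, so control replicate 3 was as low as the ThpokAD libraries. Genes for mitochondria that are encoded in the nucleus lay on the other side of 0. Of 76 mitochondrial ribosome genes 3 rose and none fell, with a median of 0.25 (Mrpl40, Mrpl18 and Mrpl36, 2.25-fold, 1.66-fold and 1.81-fold, adjusted p = 0.0179, 0.0266 and 0.0459). None of the 84 nuclear respiratory chain genes passed edgeR's test, 11 higher and 0 lower had an unadjusted p under 0.05, and DESeq2 called 5 higher and 0 lower and limma-trend 0 and 0. Of these, 65 lay above 0, with a median of 0.17. Of 47 proteasome genes none passed edgeR's test, 9 higher and 0 lower had an unadjusted p under 0.05, and DESeq2 called 4 higher and 0 lower and limma-trend 0 and 0. Of these, 38 lay above 0, with a median of 0.20. The signs of these 8 medians held under every alternative. The calls of Gnl3, Ppan, Nop58, Mrpl40, Mrpl18 and Mrpl36 depended on 1 or more of the 6 CD4 libraries and CD8 control replicates 1, 2 and 3, without which the adjusted p was 0.0506 to 0.181. Nop58 lost its call whichever of the 9 libraries was left out.

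Among transcription factors outside the lineage lists, 3 rose and 3 fell of 92 developmental factors, and none of the 20 tested BTB zinc finger genes in that list passed. That was 3.26% in each direction, against 1.81% higher and 0.928% lower over all tested genes. Ikzf3 (Aiolos) stood at 178, 189 and 184 CPM in the control libraries and 426, 537 and 407 CPM in the ThpokAD libraries (log2 fold change 1.31, SE 0.14, adjusted p = 0.00216). Bhlhe40 was at 1374, 1424 and 1296 against 2282, 2309 and 2669 CPM (adjusted p = 0.00641), and Zeb2, a repressor known from terminal effector cells, at 17.7, 38.5 and 4.95 against 168, 189 and 258 CPM (adjusted p = 0.0232). Satb1, an organiser of chromatin loops, fell from 691, 596 and 513 CPM to 209, 284 and 310.04 CPM (log2 fold change -1.17, SE 0.16, adjusted p = 0.00778). Hif1a, the oxygen-sensing factor, was 2.28-fold and Pou6f1 2.77-fold lower (adjusted p = 0.0284 and 0.0135). Each of the 6 had separate groups. Of 86 chromatin regulators 4 fell and none rose: Satb1, the H3K79 methyltransferase Dot1l (2.54-fold), Arid5a (1.45-fold) and the remodeller Chd7 (1.46-fold lower; adjusted p = 0.0297, 0.0196 and 0.0466). The direction depended on the test, since 13 were higher and 10 lower at an unadjusted p under 0.05, and DESeq2 called 11 higher and 9 lower. Ezh2, the Polycomb methyltransferase, did not pass (31.7, 75.04 and 50.5 against 65.4, 61.6 and 82.6 CPM, adjusted p = 0.638). No single library decided the calls of Ikzf3, Bhlhe40 and Satb1. The calls of Zeb2, Hif1a, Pou6f1, Dot1l, Arid5a and Chd7 depended on 1 or more of the 6 CD4 libraries and CD8 control replicate 2, without which the adjusted p was 0.0525 to 0.175.

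Genes of cell survival and protein turnover were mixed. Of 45 apoptosis genes 3 rose and 1 fell (6.67% and 2.22%, against 1.81% and 0.928% of all tested genes). Fasl, the death ligand of killer cells, stood at 440.4, 365 and 324 CPM in control and 853, 970.3 and 1061 CPM in ThpokAD libraries (log2 fold change 1.35, SE 0.15, adjusted p = 0.00241). The kinase Dapk2 was at 7.14, 2.0004 and 1.75 against 32.2, 41.4 and 68.6 CPM (adjusted p = 0.0266). Bcl2, which protects memory cells, was at 259.6, 225 and 165 against 78.02, 128 and 93.8 CPM (adjusted p = 0.0334). Every ThpokAD library was higher for Fasl and Dapk2 and lower for Bcl2 than every control library. The ubiquitin ligase Peli1, a brake on T cell activation, fell from 503, 474 and 498 CPM to 298, 300.2 and 251 CPM (log2 fold change -0.80, adjusted p = 0.00702), and Gimap6, of a family of lymphocyte GTPases, from 2135, 2150.0 and 2386 CPM to 1264, 1321 and 1169 CPM (-0.83, adjusted p = 0.00532). Leaving out any 1 library kept the calls of Fasl, Peli1 and Gimap6. Without 1 or more of the libraries the calls of Dapk2 and Bcl2 were lost (the 6 CD4 libraries and CD8 control replicates 1 and 2, adjusted p = 0.0506 to 0.127).

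Markers of other cell types differed between the groups as follows. The 9 plasma cell markers summed to 200 to 707 CPM in the control libraries and 5.04 to 49.6 CPM in the ThpokAD libraries, and none was called. The defining markers Jchain (1.37, 53.2 and 37.99 against 3.79, 0.0547 and 47.2 CPM) and Sdc1 (0, 1.31 and 3.5 against 0.399, 6.73 and 0 CPM) overlapped between the groups. The antibody genes Ighg1 (1.305, 415 and 0.874 CPM in control), Ighg2b (108, 156 and 8.04), Ighg2c (0.497, 2.23 and 653) and Igha (80.8, 15.1 and 0.466) had no count in any ThpokAD library and differed widely between the control libraries. B cell markers summed to 648 to 1267 CPM in control and 325 to 698 CPM in ThpokAD libraries, with 0 of 13 called. Myeloid markers summed to 202 to 372 CPM in control and 412 to 534 CPM in ThpokAD libraries, and 2 of 14 were called higher, Itgam (0.124, 2.69 and 2.797 against 46.6, 17.2 and 40.05 CPM) and Cd68 (18.2, 22.3 and 26.8 against 54.6, 84.4 and 43.97 CPM). Of the defining myeloid markers, Lyz2 (72.4, 62.9 and 43.8 against 46.5, 71.3 and 122 CPM) and S100a8 (8.95, 1.09 and 54.6 against 0, 5.85 and 10.3 CPM) overlapped between the groups, and S100a8 and S100a9 had lower means in ThpokAD (5.38 against 21.5 CPM in control, and 4.53 against 16.6 CPM). NK markers summed to 119 to 129 CPM in control and 1304 to 1734 CPM in ThpokAD libraries, 4 of 10 called higher and most of the ThpokAD sum from Gzma, while Ncr1, the defining NK receptor, was at 0, 2.19 and 3.18 CPM in the ThpokAD libraries and 0 in control. Markers of platelets and endothelium summed to 136 to 146 CPM in control and 73.6 to 99.8 CPM in ThpokAD libraries, with 0 of 7 called. Most of both sums came from Pecam1 (mean 133 CPM in control and 84.5 CPM in ThpokAD). The defining markers Pf4 and Cdh5 had means of 1.74 and 0.233 CPM in control and 0.216 and 0.0177 CPM in ThpokAD. The summed markers of dendritic cells, red blood cells and gamma-delta or NKT cells overlapped between the groups, with none called. Among them Xcr1, a defining dendritic cell marker (10.996, 10.2 and 9.15 against 23.6, 18.1 and 11.2 CPM), and Tcrg-C2 (0 in control, 3.59, 4.43 and 2.02 CPM in ThpokAD libraries) did not overlap. The part of such cells in the gene groups above was not tested. For Itgam and Cd68, the call was lost without 1 or more of the 6 CD4 libraries and CD8 control replicates 1 and 3 (adjusted p = 0.0513 to 0.144).

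**Figure D5:**
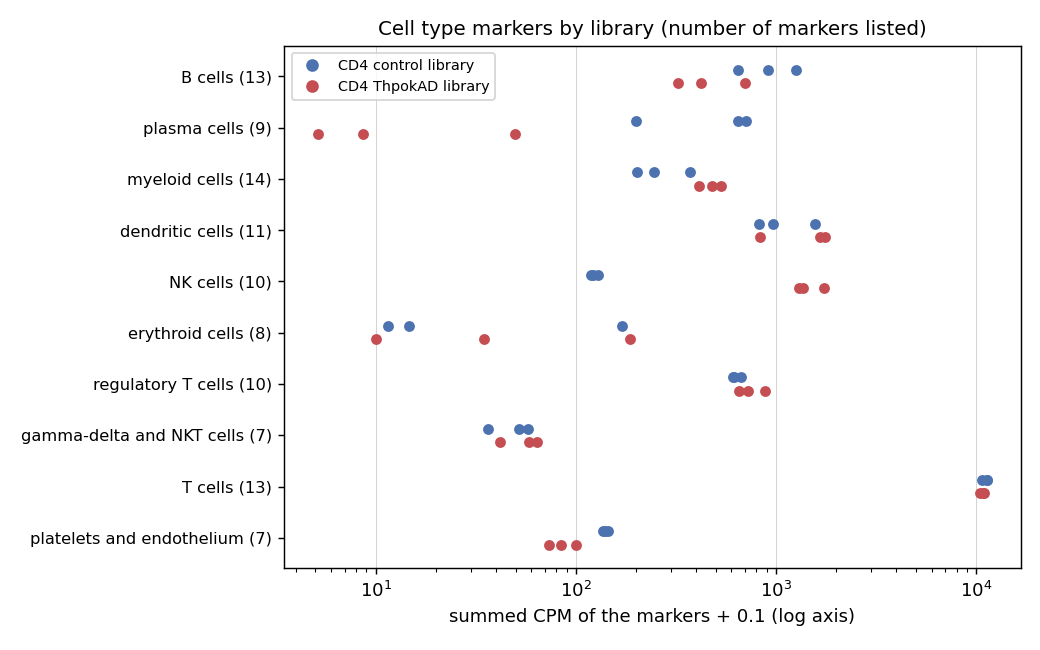
Summed CPM (x axis, log scale, 0.1 added) of the markers of 10 cell types by library, with the number of markers in brackets. T cell markers sit between 10453 and 11367 CPM in all 6 libraries. The plasma cell sum is lower, and the NK and myeloid sums higher, in the 3 ThpokAD libraries than in the 3 control libraries. The defining plasma cell markers Jchain and Sdc1 overlap between the groups.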

How the data were processed

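The submitters deposited a table of raw counts per gene symbol for 9 bulk RNA libraries (SMARTer Ultra Low Input and Nextera XT kits, per the labels' protocols), which was used here. Per the submitters' processing notes, bcl2fastq 2.17, Trimmomatic, STAR, HTSeq and DESeq2 were used with build mm10, with no role stated. The gene annotation and strand setting are not given in the sources used here. A second deposited table of scaled values was not used.

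Of 48663 entries, 26449 had a count. Genes passing filterByExpr (minimum count 10, total 15) were fitted over all 9 libraries with edgeR 4.0.16 (R 4.3.3) by TMM scaling and the quasi-likelihood test, and p-values were adjusted by Benjamini-Hochberg over 15738 genes. The script was tested on simulated data. Of the entries, 27 had names that a spreadsheet turned into dates, and 20 of these were tested. The 6 CD4 libraries held 16664474 to 20245185 counts, and intervals and floors cover counting error only. Alternatives were DESeq2 1.42.0, RLE scaling, no filter, the 6 CD4 libraries alone, limma-trend (limma 3.58.1, prior count 2), bias-adjusted deviances, a replicate block and leaving out each library.

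The members, gene lists and tests were chosen with earlier results of these data known. Genes were named by a rule: Zbtb7b, Cd4, Cd8a and Tnfrsf4, the 10 largest called changes in each direction whose libraries do not overlap and whose higher group averages 10 CPM or more, up to 4 called members of each list role by adjusted p, and marked members of the lists. Other called list members and the genes said to be in no list were added after their values were seen. Positions are from GENCODE M21, matched for 96.7% of tested genes. A few called genes and 1 gene list are not reported here.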

Additional observations from a re-analysis of the deposited data

How the results depend on the processing

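Of the 16 alternatives, 9 left out 1 library, and no named gene that was called changed direction in any. The 285 genes higher and 146 lower became 849 and 607 with DESeq2. The lower count was 246 with the 6 CD4 libraries alone, 225 with bias-adjusted deviances and 86 with a replicate block. The 8 higher replication genes became 16 with DESeq2 and 5 with the block. The 14 higher mitosis genes became 37 with DESeq2, 25 with the 6 CD4 libraries, 23 by limma-trend and 37 when deviances were bias-adjusted. The 9 lower NF-kB genes became 15 with DESeq2 and 5 with the block. Leaving out 1 library gave 131 to 281 higher and 50 to 196 lower genes, 2 to 10 replication, 4 to 18 mitosis and 3 to 10 NF-kB genes, and a Zbtb7b log2 fold change of -5.89 to -5.70. Of 144 called genes named by the fixed rule, 55 were still called in each of the 9 fits without a library. The share of higher genes among all calls was 66.1%. Samples share only a replicate number: same-numbered deviations of control and ThpokAD libraries correlated at 0.0094, -0.045 and 0.0094, and the block gave 195 higher and 86 lower genes. The cause of these changes was not tested. Depth limits genes with few counts, for which a count of 0 allows up to 3 counts.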

Other observations

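Some called genes that no list above holds belong to processes of their own, and they were picked after their values were seen. Genes that control the small GTPase Rap1, a switch of integrin adhesion, were among them. Rap1gap2, which switches Rap off, stood at 22.8, 51.2 and 42.4 CPM in the control libraries and 190.1, 188 and 129 CPM in the ThpokAD libraries (log2 fold change 2.12, adjusted p = 0.00878), and Rapgef6, which switches it on, at 525, 455 and 405 against 261, 231 and 219 CPM (-0.96, adjusted p = 0.01). The GTPase genes Rap2a and Rap1b rose 4.43-fold and 1.401-fold (adjusted p = 0.0117 and 0.0319). Of the galectin genes, whose products bind the sugars of surface proteins, Lgals1 and Lgals3 were called higher, and Lgals4, Lgals7, Lgals8 and Lgals9 did not pass. Lgals1 was at 216, 185 and 166 against 899.98, 559.8 and 729.8 CPM and Lgals3 at 45.1, 56.8 and 50.99 against 421, 276 and 257 CPM (adjusted p = 0.00437 and 0.00076). Ahnak, a large scaffold beneath the membrane, was at 885, 977 and 748 against 1938, 1891 and 2041 CPM (adjusted p = 0.00284). The calls of Rap1gap2, Rapgef6, Lgals1, Lgals3 and Ahnak held whichever library was left out. Those of Rap2a and Rap1b were lost without 1 or more of the 6 CD4 libraries and CD8 control replicate 2 (adjusted p = 0.0562 to 0.131).

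Most of the other called genes picked from outside the lists were lower, and they do not stand for the processes they belong to. Clk1, a kinase of splicing factors, stood at 819.9, 741 and 735 CPM in control and 449, 406 and 402 CPM in ThpokAD libraries (log2 fold change -0.87, adjusted p = 0.00312), and Ccnl1 and Rbm39, which also act in splicing, were 1.56-fold and 1.59-fold lower (adjusted p = 0.0132 and 0.0197). Heatr1 and Tsr1, which help build ribosomal subunits, were 2.36-fold and 2.02-fold lower (adjusted p = 0.00614 and 0.0483). Of lipid enzymes, Faah, which degrades anandamide, was at 306, 312 and 341 against 156, 143 and 107 CPM, and Dgka, a diacylglycerol kinase that dampens T cell receptor signals, was 1.76-fold lower (adjusted p = 0.00637 and 0.0158). Il16, a secreted ligand of CD4, was at 337, 347 and 304 against 199.9, 189.7 and 188 CPM, and Sidt1, a transporter of RNA, at 656, 626 and 561 against 195, 182 and 184 CPM (adjusted p = 0.00612 and 0.000122). Cks1b, a small subunit of cyclin-dependent kinases, was at 5.09, 5.94 and 6.29 against 36.1, 30.2 and 30.02 CPM, and Ran, of nuclear transport and the spindle, rose 1.53-fold (adjusted p = 0.00143 and 0.041). No single library decided the calls of Clk1, Heatr1, Faah, Il16, Sidt1 and Cks1b. The calls of Ccnl1, Rbm39, Tsr1, Dgka and Ran depended on 1 or more of the 6 CD4 libraries and CD8 control replicates 1, 2 and 3, without which the adjusted p was 0.0503 to 0.164.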
